A study of Mus musculus with 18 samples.

Results

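The 10 genes described here are those that mark the ducts and the myoepithelial cells (MECs) of the lacrimal gland (LG): the keratin genes Krt5, Krt14, Krt17, Krt7 and Krt19, the contractile genes Acta2, Myh11 and Cnn1, the oxytocin receptor gene Oxtr and the transcription factor gene Trp63. They were chosen by name, as a list of 10 among the 54232 genes counted in the series. The series measured total RNA of whole LGs, 1 gland per library, from untreated male mice of 2 strains, BALB/cJ (BALB/c, the healthy control) and NOD.B10Sn-H2b/J (NOD.H-2b, a model of the chronic LG inflammation seen in Sjögren's syndrome). Mice of each strain were 2 months (2M), 4 months (4M) or 6 months (6M) old, with 3 mice in each of the 6 groups and 18 mice in all. The strains differ across their whole genomes, so a strain difference cannot be told apart from a disease difference in this design, and in whole glands fewer cells of a type and less RNA per cell cannot be told apart.

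The LG is a tree of secretory acini drained by ducts. MECs are basal epithelial cells that wrap the acini, carry basal keratins together with a smooth muscle type contractile apparatus, and squeeze tears into the ducts when stimulated, oxytocin being among the known stimuli. Keratins assemble as pairs of a type II and a type I protein: Krt5 and Krt7 are type II, and Krt14, Krt17 and Krt19 are type I. Krt5 classically pairs with Krt14 in basal cells, Krt7 and Krt19 are keratins of simple and ductal epithelium, and the product of Trp63, p63, is the transcription factor that maintains basal epithelial cells.

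Depth was between 49480781 and 103936830 counts per mouse, and 1 library, BALB/c 6M replicate 1, was the deepest by far. All 10 genes were counted in every mouse. Counts lay between 604 and 1655 for Krt5, 404 and 758 for Krt14, and 212 and 652 for Trp63, but only between 2 and 65 for Krt19 and between 2 and 20 for Oxtr, so values of the last 2 genes rest on few reads. Summed markers of secretory acinar cells stood at 19224 to 87617 CPM in each library, as the tissue label says. CPM are read counts scaled to a common library size, here with TMM factors over the 18 mice, and differences are log2 fold changes of NOD.H-2b over BALB/c, with a call at a false discovery rate (FDR) under 0.05 over all genes tested.

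The most regular difference between the strains concerned the basal keratin Krt5, whose promoter is shown beside that of its partner Krt14, which did not pass the test at any age. The sequences are the 250 bases before the RefSeq transcription start in GRCm38.p6, printed 5′ to 3′ on the gene's strand, for Krt5 at chr15:101712906-101713155 and for Krt14 at chr11:100206031-100206280, both on the minus strand. The Krt14 window lies inside the GENCODE span of its gene (chr11:100203162-100207548), and the Krt7 window searched below lies inside that of Krt7. For both genes a start farther upstream is annotated, and the bases before it were not searched. Capitals mark a match found in Krt5 to a half-site of the p63 response element, whose first base lies at position -95 from the start. It was searched as a single copy of RRRCWWGYYY (R is A or G, W is A or T, Y is C or T).
Krt5: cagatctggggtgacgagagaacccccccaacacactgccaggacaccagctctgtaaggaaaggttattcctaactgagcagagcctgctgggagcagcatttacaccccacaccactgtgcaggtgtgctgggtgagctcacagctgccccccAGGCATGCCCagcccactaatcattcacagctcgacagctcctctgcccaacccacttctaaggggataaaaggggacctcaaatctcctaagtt
Krt14: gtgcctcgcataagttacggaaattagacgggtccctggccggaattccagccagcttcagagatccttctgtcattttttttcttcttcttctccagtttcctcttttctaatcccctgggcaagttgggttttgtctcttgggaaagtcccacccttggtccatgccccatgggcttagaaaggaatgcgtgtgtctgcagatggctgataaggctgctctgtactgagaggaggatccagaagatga
Promoters of 6 of the 10 genes were in the table used (Krt5, Krt14, Krt7, Acta2, Cnn1 and Oxtr), and Krt17, Krt19, Myh11 and Trp63 were not. Of the windows of these 6, that of Krt5 was the one with a match to the p63 half-site, which 7.18% of 27025 mouse promoters of the same length hold. The letters CANNTG (an E-box, the same on both strands) were found in all 6, once in Krt14 and at 2 positions in Krt5, and 66.0% of promoters hold them. The letters GGGCGG were found at 4 positions in Krt7 and at 1 in Oxtr (32.9% of promoters). The CArG box, searched as the exact letters CCWWWWWWGG (W is A or T, 1.40%), and TATAAA (13.0%) had no match in these 6 windows on either strand. Stretches that differ from CCWWWWWWGG or RRRCWWGYYY by 1 letter were not counted. Acta2 holds CCCTATATGG and CCTTGTTTGG for the first, and Krt14 holds GGGCAAGTTG for the second. A match is a description of letters, and binding was not measured.

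Ranked per length of annotated exon sequence, the contractile gene Acta2 was the most abundant of the 10, with 14.0 ± 2.17 CPM per kb (SD over 18 mice). Krt5 (7.74 ± 2.19), Myh11 (6.75 ± 1.03) and Krt14 (5.42 ± 0.835) followed. Krt5 and Myh11 were closer to each other than the SD of either, whereas Myh11 and Krt14 were farther apart than either SD. Cnn1 (2.19 ± 0.364), Krt17 (1.75 ± 0.448) and Krt7 (1.39 ± 0.247) formed a middle group in which each gene lay within the larger SD of its neighbour, and Trp63 stood at 0.837 ± 0.190 CPM per kb. Krt19 (0.217 ± 0.140) and Oxtr (0.0305 ± 0.0158) were far below the others. Krt7 and Trp63 have long exon unions of 7049 and 8391 bases over all annotated transcripts, which lowers their values per kb.

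**Figure D1:**
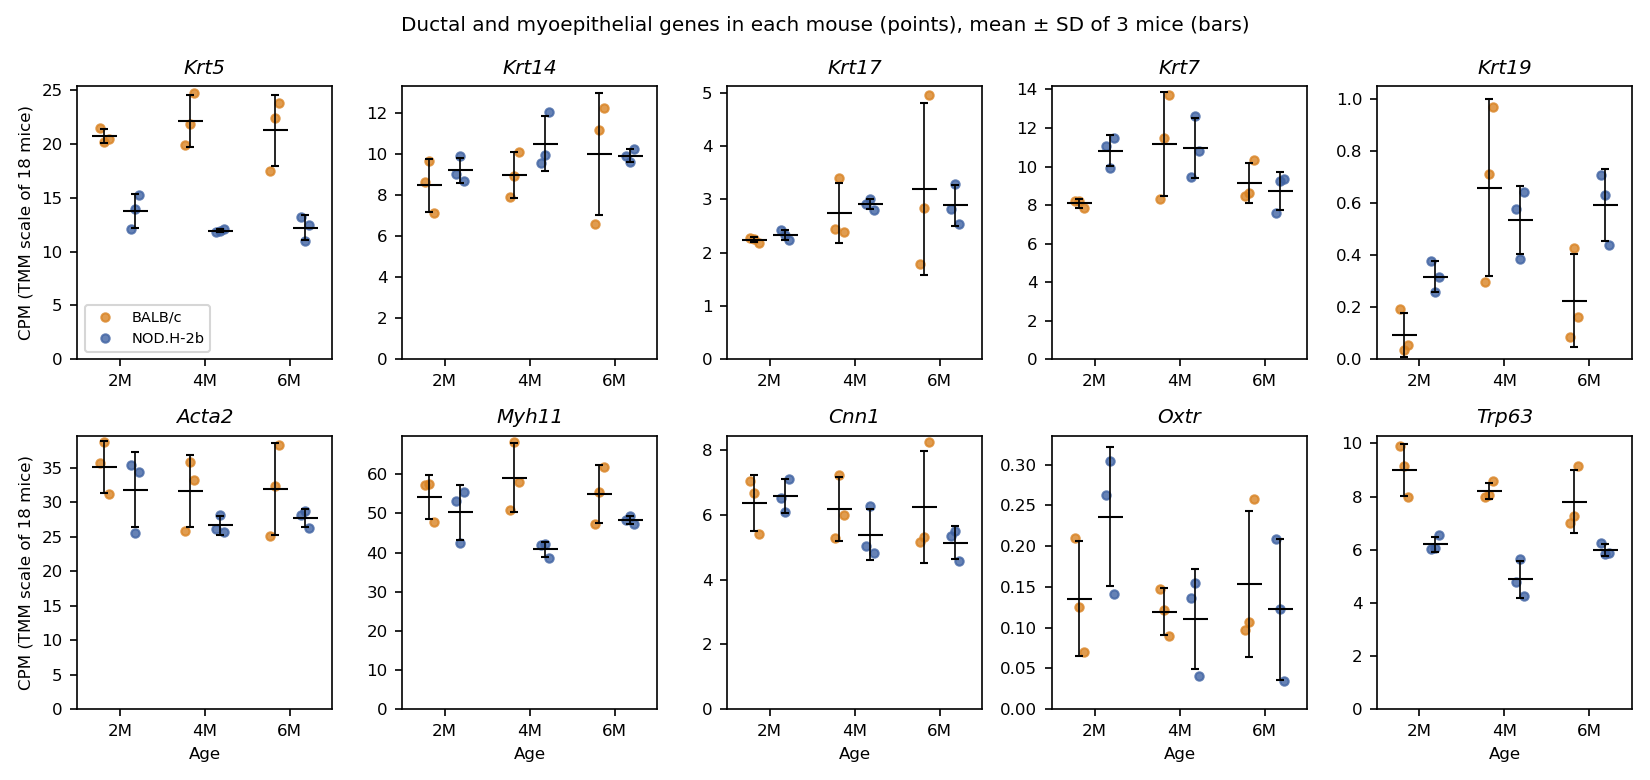
Level of each of the 10 genes in every mouse, in CPM on the TMM scale of the 18 mice (linear axes from 0), at 2M, 4M and 6M; points are mice, bars are the mean ± SD of 3 mice. Krt5 and Trp63 of NOD.H-2b lie below those of BALB/c at every age, while Krt14, Krt17, Acta2, Cnn1 and Oxtr overlap between the strains at every age.

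Krt5, the type II keratin of basal cells and MECs (chr15:101707070-101712898 in GRCm38, minus strand), was lower in NOD.H-2b at all 3 ages. In BALB/c its levels were 21.5, 20.2 and 20.5 CPM in the 3 mice at 2M, 19.9, 21.9 and 24.7 CPM at 4M, and 17.5, 22.4 and 23.8 CPM at 6M. In NOD.H-2b they were 12.1, 14.0 and 15.2 CPM at 2M, 11.8, 11.9 and 12.1 CPM at 4M, and 13.2, 11.0 and 12.5 CPM at 6M. Every NOD.H-2b mouse thus lay below every BALB/c mouse, and the 4M NOD.H-2b mice were almost equal to each other. The log2 fold change was -0.55 at 2M (SE 0.089, adjusted p = 0.0005 by edgeR's quasi-likelihood test), -0.89 at 4M (SE 0.097, adjusted p = 9.07e-05) and -0.76 at 6M (SE 0.12, adjusted p = 0.000542). Averaged over the ages in 1 fit of the 18 mice it was -0.76 (SE 0.064, adjusted p = 4.93e-09), short of the 2-fold change that defines a DEG here. The change of the difference from 2M to 6M was -0.20 (95% interval -0.53 to 0.13, adjusted p = 0.403). The 95% intervals of the strain difference ran from -0.74 to -0.35 at 2M, -1.10 to -0.67 at 4M and -1.03 to -0.48 at 6M.

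The size of these values depends on the scaling. TMM placed the median of all genes near 0, whereas scaling by total counts, an alternative chosen after seeing the data, moved that median to 0.20 at 2M, 0.15 at 4M, 0.38 at 6M and 0.25 for the average over ages. On that scale Krt5 was still lower, by log2 fold changes of -0.36 (adjusted p = 0.00533), -0.74 (adjusted p = 0.00115) and -0.36 at 6M, where it no longer passed (adjusted p = 0.0616). Of 2123 windows of 75 bases in Krt5 transcripts, 7.77% also occur in other genes, Krt6a, Krt6b and 3 predicted genes, and 5.71% of those in Krt14 occur in Krt16. Predicted gene Gm44323 overlaps Krt5 on the other strand, and reads of these genes may have been lost or shared in counting.

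Krt14, the type I partner of Krt5 (chr11:100203162-100207548, minus strand), gave no call. Its levels in BALB/c were 8.66, 9.68 and 7.12 CPM at 2M, 7.91, 8.92 and 10.1 CPM at 4M, and 6.61, 11.2 and 12.3 CPM at 6M. NOD.H-2b mice had 9.05, 9.89 and 8.69 CPM at 2M, 9.58, 9.93 and 12.0 CPM at 4M, and 9.90, 9.63 and 10.2 CPM at 6M. The strains overlapped at every age, and the widest spread was that of the 6M BALB/c mice, whose deepest library was the lowest. The log2 fold changes were 0.16, 0.23 and 0.03 at 2M, 4M and 6M (adjusted p = 0.298, 0.192 and 0.900), and the average over ages was 0.11, with a 95% interval from -0.10 to 0.32. With total counts as the scale, where the median gene also rose, Krt14 passed at 2M (0.35, adjusted p = 0.0329) and in the average (0.38, adjusted p = 0.00322).

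Because both keratins were counted in the same libraries, their ratio does not depend on the scaling. Per kb, Krt5 was 1.99 ± 0.316 times Krt14 in BALB/c at 2M (SD, n = 3), 1.97 ± 0.0308 at 4M and 1.76 ± 0.313 at 6M. In NOD.H-2b the ratio was 1.20 ± 0.178, 0.916 ± 0.0983 and 0.985 ± 0.0798 at the same ages. The lowest BALB/c mouse of all had 1.55 and the highest NOD.H-2b mouse 1.40, so the strains did not overlap over the 18 mice. The ratio of Trp63 to Krt5 was close in both strains at 2M (0.114 ± 0.0104 for BALB/c, 0.119 ± 0.0101 for NOD.H-2b) and at 4M (0.0977 ± 0.00734 against 0.107 ± 0.0163), and higher in every NOD.H-2b mouse at 6M (0.0968 ± 0.0105 against 0.129 ± 0.00908). Krt7 relative to Krt5 was higher in every NOD.H-2b mouse than in any BALB/c mouse, with 0.122 ± 0.00460 against 0.248 ± 0.0340 at 2M, 0.156 ± 0.0221 against 0.286 ± 0.0415 at 4M and 0.135 ± 0.0155 against 0.225 ± 0.0426 at 6M. Acta2 relative to Krt5 overlapped at 2M (1.52 to 1.92 in BALB/c, 1.83 to 2.94 in NOD.H-2b) and was higher in every NOD.H-2b mouse at 4M and 6M. Krt5 is part of each of these ratios, and its own levels already separated the strains, so the ratios are not separate findings. These ratios are descriptions without a test of their own, and they show unequal differences rather than which gene of a pair differed.

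**Figure D2:**
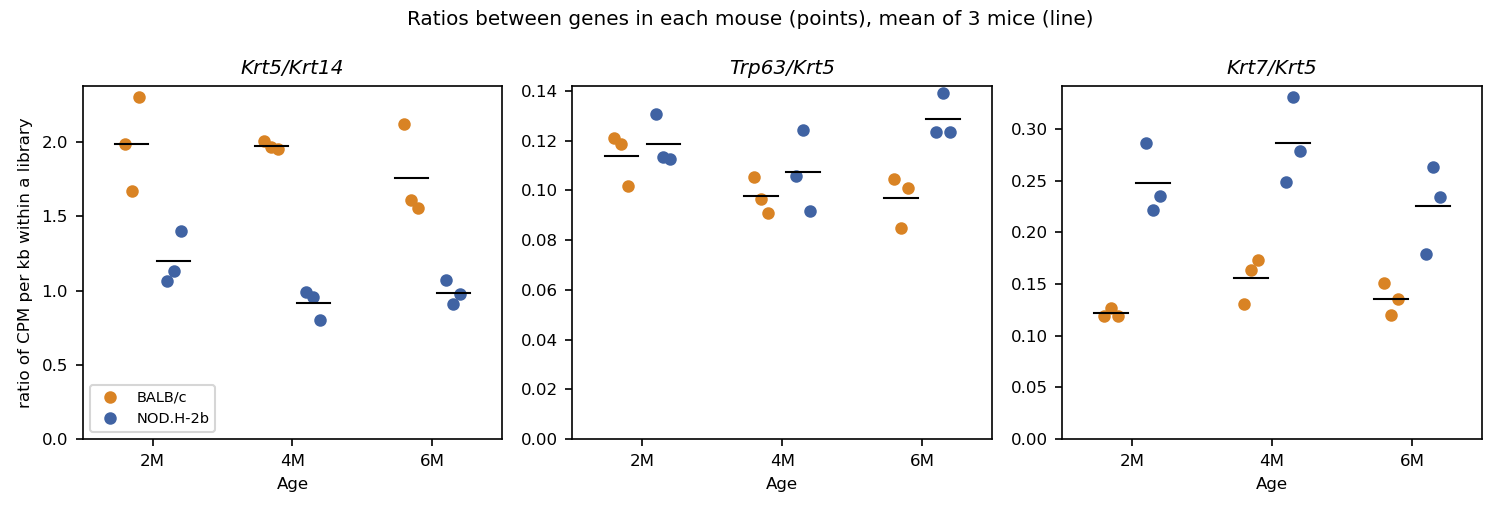
Ratios of CPM per kb within each library for Krt5 over Krt14, Trp63 over Krt5 and Krt7 over Krt5 (linear axes from 0); points are mice and lines the means of 3 mice. For Krt5 over Krt14 all BALB/c mice lie at or above 1.55 and all NOD.H-2b mice at or below 1.40.

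Trp63, which encodes p63 (chr16:25683763-25892102, plus strand), was also lower in NOD.H-2b. BALB/c mice had 9.92, 9.16 and 7.97 CPM at 2M, 8.00, 8.07 and 8.58 CPM at 4M, and 7.00, 7.26 and 9.17 CPM at 6M. NOD.H-2b mice had 6.01, 6.06 and 6.54 CPM at 2M, 4.78, 5.64 and 4.25 CPM at 4M, and 6.25, 5.83 and 5.89 CPM at 6M. The strains did not overlap at any age, although the gap at 6M was small. The log2 fold change was -0.50 at 2M (SE 0.10, adjusted p = 0.00272), -0.74 at 4M (SE 0.14, adjusted p = 0.00167) and -0.34 at 6M (SE 0.13, adjusted p = 0.0451), and averaged over the ages it was -0.55 (SE 0.070, adjusted p = 9.91e-07). The 6M call was fragile, and only 2 of 13 alternatives kept it. It was lost on leaving out BALB/c 6M replicate 2 (adjusted p = 0.0549) or replicate 3 (0.128), or NOD.H-2b 6M replicate 1 (0.0765), replicate 2 (0.105) or replicate 3 (0.125), and with total counts as the scale the 6M value was 0.05, against the median gene at 0.38.

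Strains that did not overlap were common in these data. Of all genes tested, 28.0% at 2M, 27.0% at 4M and 33.4% at 6M had every NOD.H-2b mouse below every BALB/c mouse, as Krt5 and Trp63 had. In either direction the shares were 53.4%, 55.4% and 64.6% at these ages, against 4 of the 10 genes described here (Krt5, Trp63, Krt7 and Krt19), 3 (Krt5, Trp63 and Myh11) and 3 (Krt5, Trp63 and Krt19). Krt17, a type I keratin of basal and stressed epithelium (chr11:100256217-100261029, minus strand), did not show it. It lay between 1.78 and 4.96 CPM in the BALB/c mice and between 2.23 and 3.29 CPM in the NOD.H-2b mice, and its log2 fold changes of 0.10, 0.09 and -0.09 did not pass (adjusted p = 0.662, 0.730 and 0.843). Both ends of its BALB/c range came from 6M, where replicate 1 had 1.78, replicate 2 had 2.83 and replicate 3 had 4.96 CPM.

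Both ductal keratins had higher levels in the 2M NOD.H-2b mice. Krt7, a type II keratin of ductal cells (chr15:101411043-101430313, plus strand), had 8.20, 8.22 and 7.83 CPM in the BALB/c mice at 2M and 11.1, 9.94 and 11.5 CPM in the NOD.H-2b mice, without overlap. Its log2 fold change was 0.46 (SE 0.086, adjusted p = 0.00125). At 4M the BALB/c mice had 8.33, 11.5 and 13.7 CPM and the NOD.H-2b mice 9.46, 12.6 and 10.8 CPM, and at 6M they had 8.47, 8.61 and 10.4 against 7.60, 9.24 and 9.38 CPM. The strains overlapped at both later ages, with log2 fold changes of -0.02 (95% interval -0.44 to 0.40, adjusted p = 0.937) and -0.03 (-0.31 to 0.25, adjusted p = 0.865). The change of the strain difference of Krt7 from 2M to 6M was -0.49 (SE 0.21, unadjusted p = 0.0314 by edgeR's quasi-likelihood test, adjusted p = 0.119). It passed in 1 of 24 alternatives, without BALB/c 4M replicate 1 (-0.53, adjusted p = 0.0428), a mouse outside the 2M and 6M groups compared. The average over ages passed without BALB/c 4M replicate 3 (0.19, adjusted p = 0.0456). With total counts as the scale Krt7 also passed at 6M (0.35, adjusted p = 0.0334) and in the average over ages (0.37, adjusted p = 0.000941).

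Krt19, the smallest type I keratin and a marker of ductal and simple epithelium (chr11:100140810-100148665, minus strand), was near the floor of detection. At 2M it had 10, 2 and 3 counts in the BALB/c mice and 23, 17 and 20 counts in the NOD.H-2b mice, a log2 fold change of 1.80 (SE 0.58, adjusted p = 0.0272). At 4M it had 16, 35 and 65 counts against 38, 25 and 32, and did not pass (-0.31, SE 0.44, adjusted p = 0.609). At 6M it had 8, 20 and 7 counts against 54, 36 and 25, a log2 fold change of 1.52 (SE 0.53, adjusted p = 0.0338). In CPM the strains did not overlap at 2M and 6M, with 0.0359 to 0.191 against 0.259 to 0.378 CPM at 2M and 0.0859 to 0.426 against 0.438 to 0.706 CPM at 6M, and they overlapped at 4M. The average over ages was 0.98 (SE 0.33, adjusted p = 0.0132).

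Single libraries decided the 2 calls of Krt19. The 2M call was lost on leaving out BALB/c 2M replicate 2 (adjusted p = 0.109) or replicate 3 (0.107), or NOD.H-2b 2M replicate 1 (0.0705) or replicate 3 (0.0658). The 6M call was lost on leaving out BALB/c 6M replicate 1 (adjusted p = 0.122) or replicate 3 (0.0880), or NOD.H-2b 6M replicate 1 (0.0967) or replicate 2 (0.0621). DESeq2's Wald test did not call it at 2M (adjusted p = 0.0614). Its log2 fold change ran from 1.42 (without BALB/c 2M replicate 2) to 2.81 (without BALB/c 2M replicate 1) at 2M, and from 1.02 (without BALB/c 6M replicate 1) to 2.37 (without BALB/c 6M replicate 2) at 6M.

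Of the contractile genes, Myh11 differed at a single age. Myh11 is the smooth muscle myosin heavy chain (chr16:14194535-14291372, minus strand). At 4M its levels were 51.0, 68.3 and 58.1 CPM in the BALB/c mice and 41.8, 42.1 and 38.7 CPM in the NOD.H-2b mice, without overlap, and the log2 fold change was -0.53 (SE 0.10, adjusted p = 0.00243). At 2M the BALB/c mice had 57.3, 57.6 and 47.8 CPM against 53.2, 42.4 and 55.5 CPM, and at 6M 47.2, 55.5 and 61.9 CPM against 48.3, 49.4 and 47.3 CPM. The strains overlapped at both of these ages, with log2 fold changes of -0.07 (adjusted p = 0.707) and -0.15 (adjusted p = 0.218). The average over ages was -0.27 (SE 0.068, adjusted p = 0.00172), and with total counts as the scale it was -0.00 (adjusted p = 0.958) against a median gene at 0.25.

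Acta2, the smooth muscle actin that defines MECs (chr19:34241090-34255590, minus strand), did not pass at any age. Its BALB/c mice had 35.7, 38.7 and 31.2 CPM at 2M, 25.8, 35.9 and 33.3 CPM at 4M and 25.2, 32.3 and 38.4 CPM at 6M. NOD.H-2b mice had 35.5, 25.6 and 34.5 CPM, 26.1, 28.2 and 25.7 CPM, and 28.1, 28.7 and 26.2 CPM at these ages, so the strains overlapped throughout. The log2 fold changes were -0.10, -0.24 and -0.17 (adjusted p = 0.604, 0.124 and 0.321), and the average was -0.20 with a 95% interval from -0.39 to -0.01 and an adjusted p of 0.0613. Leaving out 1 mouse took Acta2 past the threshold at 4M (without BALB/c 4M replicate 1, adjusted p = 0.0137) and at 6M (without BALB/c 6M replicate 1, 0.0339). The average passed without BALB/c 4M replicate 1 (0.0247), BALB/c 6M replicate 1 (0.0158) or NOD.H-2b 2M replicate 1 (0.0415). With total counts as the scale the average was 0.07 (adjusted p = 0.519).

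Cnn1, calponin 1, an actin-binding protein of smooth muscle and MECs (chr9:22099216-22109630, plus strand), lay between 5.15 and 8.25 CPM in the BALB/c mice and between 4.58 and 7.12 CPM in the NOD.H-2b mice. Its log2 fold changes were 0.09, -0.19 and -0.24, with overlap at every age and adjusted p = 0.608, 0.384 and 0.313. The average was -0.14 (95% interval -0.35 to 0.07).

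Oxtr, the receptor for oxytocin (chr6:112473683-112489943, minus strand), was counted at 11, 7 and 4 in the BALB/c mice of 2M and at 16, 20 and 9 in the NOD.H-2b mice. At 4M the counts were 8, 6 and 6 against 9, 10 and 2, and at 6M 9, 5 and 11 against 16, 7 and 2. The filter on low counts left it in the test at 2M (0.85, 95% interval -0.32 to 2.01, adjusted p = 0.237) and in the fit of 18 mice (average 0.18, 95% interval -0.58 to 0.94, adjusted p = 0.683), but not at 4M and 6M. Changes smaller than these intervals were not detectable at this depth.

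**Figure D3:**
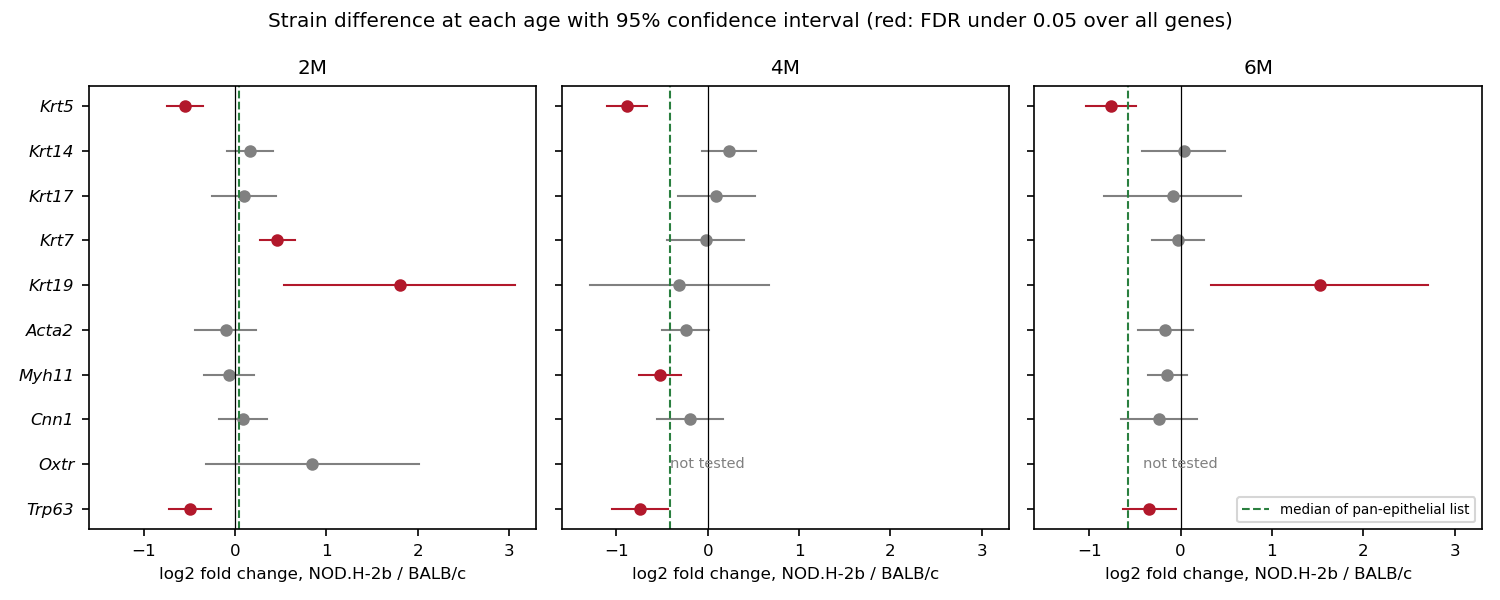
Log2 fold change of NOD.H-2b over BALB/c (x axis) for each gene at 2M, 4M and 6M, with its 95% interval; red marks an FDR under 0.05 over all genes, and the dashed line is the median of the pan-epithelial list (0.04, -0.41 and -0.58). Krt5 lies to the left of 0 at each age, and so does Trp63, whose 6M value turns to 0.05 with total counts as the scale.

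Counted together, 4 of the 10 genes passed at 2M, 2 up (Krt7 and Krt19) and 2 down (Krt5 and Trp63), while 39.8% of the 17200 genes tested passed. At 4M 3 of 9 tested genes passed, all down (Krt5, Trp63 and Myh11), against 42.6% of 17722 genes, of which 19.2% of all tested were down. At 6M 3 of 9 passed, Krt19 up and Krt5 and Trp63 down, against 54.4% of 17750 genes. In the average over ages 4 of 10 passed, Krt19 up and Krt5, Trp63 and Myh11 down, against 65.5% of 19117 genes. The share of the 10 genes that passed was thus close to that of all genes at 2M and below it in the other 3. The median log2 fold change of the tested genes of this list was 0.09, -0.24 and -0.15 at 2M, 4M and 6M, and that of all genes lay within 0.01 of 0. For the change of the strain difference from 2M to 6M, 0 of the 10 passed by edgeR's quasi-likelihood test or by DESeq2 and 1 (Krt7) had an unadjusted p under 0.05, against 16.1% of 19117 genes.

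Within a strain, age moved few of these genes. From 2M to 4M in BALB/c, Krt19 was the 1 gene of 9 tested that passed, against 11.1% of 16639 genes in either direction and 6.1% higher, and rose by a log2 fold change of 2.83 (SE 0.62, adjusted p = 0.0128) from the 10, 2 and 3 counts to the 16, 35 and 65 counts given above. This call was lost on leaving out BALB/c 2M replicate 2 (adjusted p = 0.0565) or replicate 3 (0.0652). Krt7 had 0.47 over the same interval (adjusted p = 0.0965), and passed on leaving out BALB/c 4M replicate 1 (0.64, adjusted p = 0.00228). From 4M to 6M none of 9 and from 2M to 6M none of 8 tested genes passed in BALB/c by edgeR's quasi-likelihood test or DESeq2, with 1 and 0 at an unadjusted p under 0.05, against 0.307% of 16622 and 5.61% of 16579 genes. Trp63 passed from 2M to 6M in BALB/c without BALB/c 6M replicate 3 (-0.35, adjusted p = 0.0432).

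In NOD.H-2b, where 40.0% of 18008 genes passed between 2M and 6M and 19.4% fell, Krt7 and Cnn1 fell and the other 8 genes did not pass. Krt7 went from 11.1, 9.94 and 11.5 CPM to 7.60, 9.24 and 9.38 CPM, a log2 fold change of -0.33 (SE 0.11, adjusted p = 0.0422). Cnn1 went from 6.52, 6.09 and 7.12 CPM to 5.34, 5.51 and 4.58 CPM, a log2 fold change of -0.37 (SE 0.12, adjusted p = 0.0377). Neither passed with DESeq2 (adjusted p = 0.0629 and 0.0509) or in the fit of all 18 mice (0.0997 and 0.107). Both were lost on leaving out NOD.H-2b 2M replicate 1 (0.115 for Krt7 and 0.0860 for Cnn1), 2M replicate 3 (0.152 and 0.139), 6M replicate 1 (0.130 and 0.0603) or 6M replicate 3 (0.0655 and 0.129), and Cnn1 also without 2M replicate 2 (0.0509). From 2M to 4M 0 of 9 genes passed in this strain by the edgeR test, with 2 at an unadjusted p under 0.05 and 1 called by DESeq2, against 15.8% of 17763 genes. Without NOD.H-2b 2M replicate 2, Myh11 (-0.41, adjusted p = 0.0196) and Acta2 (-0.39, 0.0261) passed from 2M to 4M, and Acta2 from 2M to 6M (-0.34, 0.0158). From 4M to 6M 0 of 9 passed by either tool, with 1 at an unadjusted p under 0.05, against 0.00555% of 18026 genes.

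Across the 18 mice, the genes were compared by the root mean square (RMS) difference of their log2 CPM, each centred on its own mean, over the 14794 genes with a usual gene symbol. Among the 10 genes the closest pairs were Acta2 and Myh11 (RMS 0.12), Acta2 and Cnn1 (0.13) and Myh11 and Cnn1 (0.17), that is, the 3 contractile genes. Krt5 was closest to Trp63 (0.19) and farther from its partner Krt14 (0.48), and Krt14 was closest to Krt17 (0.23). Of all genes, Zfp868 (0.12) and Morn1 (0.13) were the most like Krt5, and Mctp2 (0.14) and Plch2 (0.14) the most like Trp63. Myh11 and Sox10 (0.13) were the most like Acta2, and Acta2 and Sox10 (0.13) the most like Myh11. For Cnn1 the nearest were Acta2 and Ehd2 (0.14), for Krt14 Med4 (0.15) and Irak4 (0.16), for Krt17 Eif4a-ps4 (0.21) and Kdelc2 (0.23), and for Krt7 Lhpp (0.16) and Lasp1 (0.16). Krt19 (Ripor3 0.59 and Lyz1 0.65) and Oxtr (Ybey and Ccdc80, both 0.46) had no close neighbour. The distance also depends on how much a gene varies. The RMS around its own mean was 0.21 for Acta2, 0.21 for Myh11, 0.23 for Cnn1, 0.22 for Krt14 and 0.40 for Krt5. The distance from Krt14 to Krt17 was thus no smaller than that from Krt14 to a gene without variation. Likeness here is a description over 18 mice that share strain and age groups.

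Other genes of the same structures were described from fixed lists, by the average over ages. Of 18 tested genes of the contractile apparatus besides the 3 above, 10 rose and 4 fell, with a median log2 fold change of 0.27 (all genes -0.02, with 65.5% of them passing). Cnn2, the calponin of non-muscle cells, rose by 2.11 (SE 0.13, adjusted p = 1.43e-09), from 4.75 ± 0.824 to 9.85 ± 2.27 CPM at 2M and from 4.10 ± 0.367 to 30.9 ± 6.95 CPM at 6M. Des, the intermediate filament of muscle, rose by 1.61 (SE 0.18, adjusted p = 2.69e-07), and Synpo2, an actin-binding protein, by 1.34 (SE 0.092, adjusted p = 3.03e-10). Cnn2, Des and Synpo2 were named for the largest called changes at an average log2 CPM of at least 0. The 4 genes that fell are not named here, so the named genes do not give the direction of the list. Acta2, Myh11 and Cnn1 had averages of -0.20, -0.27 and -0.14. Which cells of the whole gland carried Cnn2, Des and Synpo2 was not tested, and the B and T cell markers given below were also higher in NOD.H-2b.

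Of 21 other genes of basal and myoepithelial cells, 7 were higher and 10 lower, with a median of -0.17 (65.5% of all genes passed). Dst, whose epithelial form anchors keratin filaments at hemidesmosomes, fell by 1.36 on the log2 scale (SE 0.042, adjusted p = 2.64e-15), from 219 ± 4.77 to 76.2 ± 3.95 CPM at 2M, 231 ± 6.74 to 88.1 ± 5.05 CPM at 4M and 231 ± 6.68 to 102 ± 11.8 CPM at 6M. Aqp1, a water channel that endothelium also carries, rose by 1.43 (SE 0.077, adjusted p = 1.08e-11), and Sfn, the 14-3-3 protein of epithelia, by 1.40 (SE 0.20, adjusted p = 3.77e-06). Krt15, another basal type I keratin, stood at 0.371 ± 0.0487 against 0.215 ± 0.0739 CPM at 2M, and its average of -1.18 (SE 0.38, adjusted p = 0.0105) rests on few counts.

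For 20 other duct genes the counts were 7 up and 10 down, with a median of -0.15 (65.5% of all genes passed). Cldn4, a tight junction protein, rose by 3.53 (SE 0.40, adjusted p = 2.16e-06), from 0.169 ± 0.135 to 4.42 ± 1.01 CPM at 2M. Kcnn4, a calcium-activated potassium channel, fell by 1.60 (SE 0.071, adjusted p = 7.55e-13), and Elf5, an epithelial ETS factor, fell by 1.51 (SE 0.065, adjusted p = 1.33e-12). Krt8, a simple epithelial keratin that belongs to this list and to the pan-epithelial one, had an average of -0.04 (adjusted p = 0.742), with 0.42 at 2M (adjusted p = 0.00577) and -0.40 at 6M (adjusted p = 0.0179). Its partner Krt18, in the same lists, averaged -0.41 (SE 0.051, adjusted p = 8.62e-07).

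Around Oxtr, 17 genes of the oxytocin receptor pathway were tested, of which 7 were higher and 6 lower, with a median of 0.38 (65.5% of all genes passed). The inositol trisphosphate receptor genes Itpr2 and Itpr1, which release calcium from stores, rose by 1.45 (SE 0.098, adjusted p = 5.08e-09) and 1.29 (SE 0.10, adjusted p = 2.46e-08). Prkca, a calcium-dependent kinase, fell by 1.24 (SE 0.064, adjusted p = 6.28e-12). The ligand genes Oxt and Avp were not tested for lack of counts. These downstream genes are used by many receptors and cell types.

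**Figure D4:**
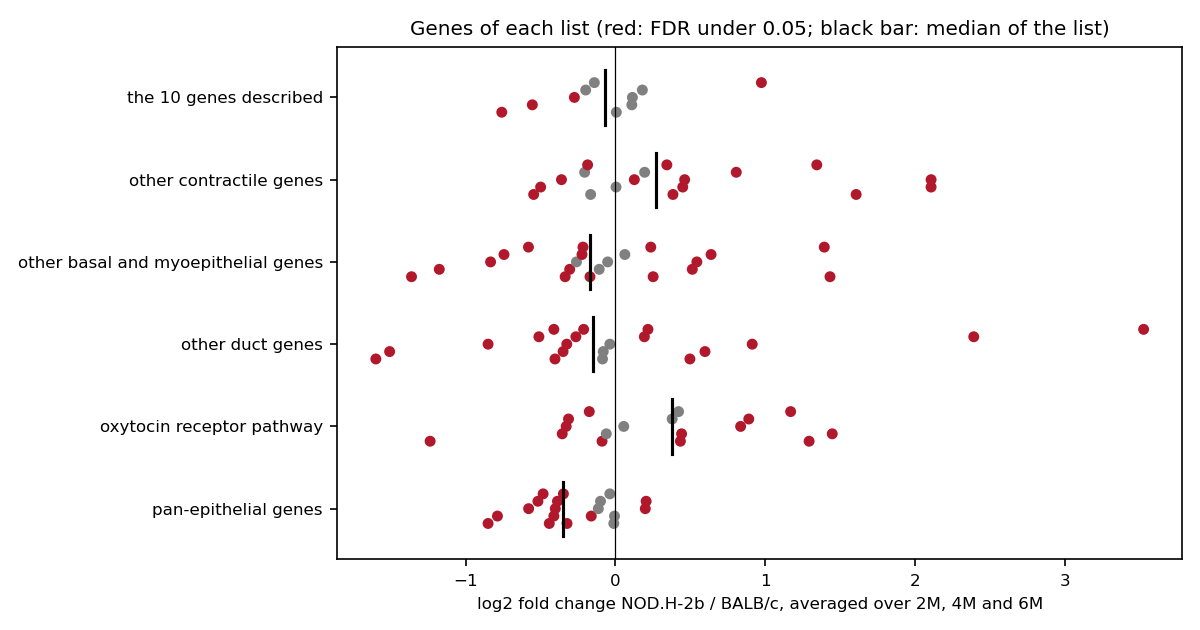
Log2 fold change of NOD.H-2b over BALB/c averaged over the 3 ages (x axis) for the 10 genes and for each gene of 5 other lists; points are genes, red at an FDR under 0.05, and black bars are list medians. Medians were -0.07 for the 10 genes, 0.27 for other contractile, -0.17 for other basal and myoepithelial, -0.15 for other duct, 0.38 for oxytocin pathway and -0.35 for pan-epithelial genes.

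The strain difference of a list of general epithelial genes was not the same at each age. This list includes keratins of simple epithelium (Krt8 and Krt18), and how far basal cells and MECs express its genes was not tested. Its median is therefore not a measure of the amount of those cells. The pan-epithelial list (19 genes tested) had a median log2 fold change of NOD.H-2b over BALB/c of 0.04 at 2M, -0.41 at 4M and -0.58 at 6M, with 8 up and 5 down at 2M, 0 up and 11 down at 4M and 0 up and 15 down at 6M. Of all genes tested, 39.8%, 42.6% and 54.4% passed in either direction at these ages, and 19.2% were lower at 4M. Between 2M and 6M, BALB/c had 1 of the 19 up and 0 down (median -0.03, 5.61% of all genes passing), while NOD.H-2b had 0 up and 18 down (median -0.68, 40.0% of all genes passing and 19.4% lower). Its named members were Cldn7 (-0.85, SE 0.075), Grhl2 (-0.79, SE 0.048) and Ap1m2 (-0.58, SE 0.048) in the average. Set against this median, Krt5 was at -0.59, -0.48 and -0.18 at the 3 ages, Trp63 at -0.54, -0.33 and 0.24, and Krt14 at 0.12, 0.64 and 0.61. Acta2 and Myh11 stood at 0.41 and 0.43 against it at 6M.

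Markers of other cell types are given beside these values, and their part in the differences above was not tested. In the average over ages 65.5% of all genes passed, so that the 12 of 14 acinar markers and 8 of 10 endothelial markers that passed lay above this share, and 5 of 11 vascular smooth muscle and 4 of 10 fibroblast markers below it. The 8 B and T cell markers tested at 2M were all higher in NOD.H-2b, with summed levels of 6.53 to 8.87 CPM in BALB/c and 43.4 to 134 CPM in NOD.H-2b. All 10 were higher at 4M and at 6M, with sums of 12.5 to 29.2 CPM over the BALB/c mice and 287 to 670 CPM over the NOD.H-2b mice of these ages. Acinar markers (14 tested) had 2 up and 10 down in the average, with a median of -0.47, among them Esp31 (-3.47), Car6 (-3.15) and Scgb2b17 (2.36). Markers of vascular smooth muscle and pericytes, which share Acta2, Myh11 and Cnn1 with MECs, had 2 up and 3 down of 11, with Cspg4 at -1.86, Abcc9 at -0.91 and Mcam at -0.44. Their summed level was 44.4 to 50.7 against 31.2 to 34.2 CPM at 2M, 39.8 to 45.0 against 36.8 to 42.8 CPM at 4M and 34.6 to 37.0 against 41.2 to 44.3 CPM at 6M, so it was lower in NOD.H-2b at 2M and higher at 6M. Endothelial markers had 3 up and 5 down of 10 (Pecam1 1.46, Vwf 0.98, Emcn -0.62), and fibroblast markers 4 up and 0 down of 10 (Fbln1 1.20, Mfap5 0.50, Pdgfra 0.35). Skeletal muscle markers summed to 0.296 to 2.13 CPM, with 2 up and 2 down of the 4 tested. Markers of stratified squamous epithelium, which also uses Krt5 and Krt14, summed to 0.418 to 1.33 CPM, with 8 to 10 of the 11 at or under 3 counts in each group, Krt2 and Krt13 at 0 in all 6 groups, and 0 up and 1 down of the 2 tested.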

How the data were processed

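RNA of 18 LGs (3 mice per strain and age) was depleted of ribosomal RNA and sequenced as pairs of 75 bases. The authors used cutadapt for trimming, STAR for alignment to GRCm38 and HTSeq for counting, and the deposited raw counts of 54232 genes were used here. A deposited table of log2 values derived from them was not used. The strand setting, the annotation release and the handling of reads with several matches are not given in the sources used here. Positions are those of GENCODE M21 (GRCm38), which held 54165 of the genes. Promoters are from RefSeq (GRCm38.p6).

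Counts were analyzed in R 4.3.3 with edgeR 4.0.16 (limma 3.58.1): TMM, filterByExpr and the quasi-likelihood test in its robust form, p-values being adjusted by Benjamini-Hochberg over all genes tested. Groups were compared on their 6 mice, and the average over ages and its change on all 18. A gene was called at FDR under 0.05, and a DEG also changed at least 2-fold. Standard errors come from the log2 fold change and F. CPM per kb used the union of exons. On simulated counts the test at 6M recovered 86% of 2-fold and 99% of 4-fold changes, with 3.19% of calls wrong. The test of strain by age recovered 54.7% and 89.8%, with 1.41% wrong. The simulation gave every gene the same dispersion and changed a far smaller share of genes than the 54.4% called between strains at 6M. These rates therefore describe the simulated setting and not the error rates in these data. Replicates differed by more than counting noise (chi-square per gene 16.4 to 83.4), so the 3 mice set the precision.

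The 10 genes and the other lists were chosen with earlier results of these data known, and several list genes are ones the study names for these tissues. Other genes named are, in each list, the 3 with the largest called average log2 fold change at an average log2 CPM of at least 0, plus Krt8, Krt18 and Krt15, and the 2 genes most like each member. The symbols Mrtfa, Scgb2a2 and Loricrin of the lists had no match. Alternatives were DESeq2 1.42.0 (its Wald test, and its size factors in edgeR), no filter, at least 10 counts in every sample, 1 fit of 18 mice, the replicate number as a block, subtraction of the pan-epithelial median, leaving out each mouse, and, chosen after seeing the data, total counts as the scale. Mice were treated as unpaired, since replicate numbers did not pair them.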

Additional observations from a re-analysis of the deposited data

How the results depend on the processing

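Of 1564 values of the 10 genes under the alternatives, 1481 stayed the same, 44 lost a call and 23 gained one. Another 15 moved by more than the spread of the mice, and 1 called value, Trp63 at 6M, was reversed. These last 2 labels came from subtracting the pan-epithelial median, which has no test, and there the same means a shift within that spread. Elsewhere the same means on the same side of the threshold. Among the 1564, 93 were called in neither fit and had the other sign. The call of Krt5 held in all 13 alternatives at 2M, all 13 at 4M and all 24 for the average over ages, and in 12 of 13 at 6M, where total counts as the scale ended it (-0.36, adjusted p = 0.0616). Trp63 at 6M turned to 0.24 when the pan-epithelial median was subtracted. With at least 10 counts in every sample 1 gene was called at 6M, since Krt19 was no longer tested and Trp63 missed the threshold, while 0 were called for BALB/c (2M to 4M) and 1 for NOD.H-2b (2M to 6M). DESeq2's Wald test called 2 genes for BALB/c (2M to 4M), 1 for NOD.H-2b (2M to 4M) and 0 for NOD.H-2b (2M to 6M). No filter on low counts gave 2 for BALB/c (2M to 4M), 1 for BALB/c (4M to 6M) and 1 for NOD.H-2b (2M to 4M). For NOD.H-2b (2M to 6M) total counts as the scale called 1 and a fit of all 18 mice 0. The cause of these moves was not tested.

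Leaving out 1 mouse gave 3 to 4 calls at 2M and at 4M, 1 to 3 at 6M, 4 to 5 in the average over ages and 0 to 1 in strain by age. Between ages it gave 0 to 2 calls (2M to 4M), 0 to 0 (4M to 6M) and 0 to 1 (2M to 6M) within BALB/c, and 0 to 2, 0 to 0 and 0 to 2 within NOD.H-2b. With the replicate number as a block, 0 genes were called between 2M and 4M in BALB/c, and 0 between 2M and 6M in NOD.H-2b. Deviations of same-numbered mice correlated between -0.30 and 0.30 over 27 pairs, and in no comparison did every pair exceed 0.1, so the mice were kept unpaired. Few counts limit Krt19 and Oxtr, and the 3 mice per group limit the others.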
